A study of Homo sapiens with 12 samples.

Results

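Genes of lipid droplets, lipid uptake and acyl-CoA metabolism were followed in RCC4, a human clear cell renal carcinoma line that lacks functional VHL. The 10 genes are the droplet coat proteins PLIN2 and PLIN3, the lipase inhibitor HILPDA, the lipase PNPLA2, the phosphatidate phosphatase LPIN1, the lipoprotein receptor VLDLR, the carnitine acyltransferase CPT1A and the acyl-CoA synthetases ACSL1, ACSL3 and ACSL4. They were taken by name, through the gene symbols of the array's annotation, and 9 of the 10 are measured here among 11963 genes. ACSL3 is not analysed here. Of the 4 groups of 3 arrays, the first was VHL cells (RCC4 with VHL put back) held for 6 h in medium without cystine, and the second was VHL cells in full DMEM. The third was Vec cells (RCC4 with the empty vector) without cystine, and the fourth was Vec cells in full DMEM. The labels give 10% serum, and call it dialysed in the deprived medium but not in the growth medium, so loss of cystine and a change of serum cannot be told apart if full DMEM held undialysed serum. The labels do not say whether either line is 1 clone or a pool, so put-back VHL and other differences between the lines cannot be told apart. They call the arrays biological replicates without naming separate cultures, and p-values then measure only the spread between these arrays, which may be technical.

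Lipid droplets store triglyceride and sterol esters under a coat of perilipins. Fatty acids reach them after uptake from lipoproteins or from the medium and activation to acyl-CoA, and leave them through lipases, or are sent instead into mitochondria through the carnitine shuttle. Clear cell renal carcinoma takes its name from cells filled with lipid and glycogen. Without VHL, the hypoxia-inducible factors (HIF) are not degraded in normal oxygen, and PLIN2, HILPDA, LPIN1 and VLDLR are known as genes induced by hypoxia or HIF, while CPT1A has been described as repressed by HIF. VLDLR is also known to be induced through ATF4, the transcription factor of amino acid shortage. ACSL4 loads arachidonate and other polyunsaturated fatty acids onto coenzyme A and is known for its part in ferroptosis, the death by lipid peroxidation that loss of cystine can cause.

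Every value below is the deposited log2 value of a probe set, the array's group of probes for a transcript. A gene is given by its brightest probe set, and levels of different genes are not set against each other. Differences come from limma's moderated test, two-sided, fitted over all 12 arrays, with Benjamini-Hochberg adjustment over 11963 genes, and a gene is called at an adjusted p under 0.05. The error after a difference is the standard error of the fit, and the error after a group mean is the SD of 3 arrays. An array value is an average over a culture, so fewer expressing cells and less RNA per cell cannot be told apart. Array medians lay between 7.12 and 7.18, and arrays of the same group correlated at 0.998 or more over the genes. All 9 measured members had means above 6.06, the lower tertile of all probe set means. The only probe set for VHL itself was dim, at 5.93 to 6.02 in VHL cells and 5.80 to 6.07 in Vec cells. It therefore does not check which line carries VHL. PAX8, a transcription factor of renal epithelium, averaged 10.9, and 5 of 5 measured endothelial and 4 of 5 blood cell markers lay at or under the lower tertile. Summed log2 values of 8 renal markers ran from 86.1 to 86.9 in VHL cells, against 89.1 to 89.5 in Vec cells, a difference held by the carbonic anhydrase CA12 (8.09 in deprived and 7.95 in control VHL cells, against 11.1 in Vec cells in either medium). The cadherin CDH16 was higher in VHL cells, at 9.25 in deprived and 9.15 in control medium, against 8.03 and 8.07 in Vec cells. The keratin KRT8 was lower in VHL cells, at 10.92 in deprived and 10.94 in control medium, against 11.57 and 11.56 in Vec cells. Without CA12, singled out after its values were seen, the group means of the other 7 summed to 78.6 in deprived and 78.2 in control VHL cells, against 78.2 and 78.1 in Vec cells. The part of these markers in the differences between the lines was not tested.

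In VHL cells the droplet genes PLIN2 and HILPDA and the lipid synthesis gene LPIN1 were lower than in Vec cells by about 0.9 to 1.1 on the log2 scale, in either medium. CPT1A was higher in VHL than in Vec cells by a similar size with its brightest probe set, though its other probe sets gave smaller differences. PLIN3 and VLDLR were higher by smaller amounts. ACSL1, ACSL4 and PNPLA2 were not called between the lines. In deprived medium 6 of 9 members were called, 3 higher and 3 lower, where 47.2% of all genes were called, 24.2% higher and 23% lower. In control medium it was again 6 of 9, 3 higher and 3 lower, where 46.1% of all genes were called, 23.1% higher and 23% lower. The lines did not overlap for 6 members in each medium, as was so for 54.2% of all genes in deprived and 53.2% in control medium. These shares of all genes include dim genes, and no member is at or under the lower tertile. With such genes left out, 5396 of 8765 genes were called in deprived and 5335 of 8765 in control medium. The members called were again 6 of 9 in each. The count is thus close to that of the other genes above the lower tertile, and is not a result about the members. The median absolute difference was 0.29 over the members and 0.16 over all genes in deprived medium, and 0.31 and 0.15 in control medium. The medians over all genes include dim genes, and the members were chosen with earlier results of these data known. Whether members differ more than other genes was therefore not tested. The signed median of the members was -0.06 in deprived and 0.09 in control medium.

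PLIN2, the main coat protein of droplets outside fat tissue, gave 10.96, 10.93 and 10.88 in deprived VHL cells and 10.79, 10.81 and 10.94 in control VHL cells. In Vec cells it gave 11.78, 11.86 and 11.97 without cystine and 11.78, 11.78 and 11.77 in control medium. All 6 arrays of VHL cells lay below all 6 of Vec cells, and the media overlapped within each line. PLIN2 was 1.93-fold lower in VHL than in Vec cells in deprived medium (-0.95 ± 0.06, limma adjusted p = 1.70e-08) and 1.91-fold lower in control medium (-0.93 ± 0.06, limma adjusted p = 1.95e-08).

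PLIN3, a perilipin that moves between cytosol and droplets, went the other way. It gave 11.37, 11.31 and 11.35 in deprived and 11.45, 11.43 and 11.56 in control VHL cells, against 11.07, 11.16 and 11.10 in deprived and 11.21, 11.18 and 11.21 in control Vec cells. Every VHL array was above every Vec array, but the distance was small. The difference was 0.23 ± 0.05 in deprived medium (limma adjusted p = 0.00129) and 0.28 ± 0.05 in control medium (limma adjusted p = 2.90e-04).

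HILPDA, a small droplet protein that inhibits the lipase PNPLA2, had the widest range of group means among the members, 1.29 on the log2 scale. It gave 9.12, 9.00 and 9.06 in deprived and 8.78, 8.75 and 8.86 in control VHL cells. In Vec cells the values were 10.10, 10.02 and 10.12 without cystine and 9.98, 9.91 and 9.85 in control medium. The 4 groups did not overlap, and stood in the order control VHL, deprived VHL, control Vec and deprived Vec cells from low to high. HILPDA was 2.03-fold lower in VHL cells in deprived medium (-1.02 ± 0.05, limma adjusted p = 3.86e-09) and 2.17-fold lower in control medium (-1.12 ± 0.05, limma adjusted p = 1.79e-09). PNPLA2, the triglyceride lipase that HILPDA inhibits, gave 9.08, 9.21 and 9.17 in deprived and 9.32, 9.17 and 9.18 in control VHL cells, against 9.12, 9.16 and 9.29 in deprived and 9.14, 9.10 and 9.18 in control Vec cells. All groups overlapped, and the group means lay between 9.14 and 9.22, the narrowest range of the members (0.085). Its difference between VHL and Vec cells was -0.03 in deprived medium (95% interval -0.16 to 0.10) and 0.09 in control medium (95% interval -0.04 to 0.21), so a change as large as that of HILPDA lies outside these intervals for this probe set.

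LPIN1, which turns phosphatidate into the diacylglycerol used for triglyceride, gave 8.58, 8.40 and 8.31 in deprived and 8.47, 8.37 and 8.54 in control VHL cells. In Vec cells it gave 9.42, 9.40 and 9.39 without cystine and 9.44, 9.22 and 9.34 in control medium. The lines did not overlap and the media did within each line. LPIN1 was 1.96-fold lower in VHL cells in deprived medium (-0.97 ± 0.07, limma adjusted p = 1.59e-07) and 1.83-fold lower in control medium (-0.87 ± 0.07, limma adjusted p = 4.39e-07).

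CPT1A, which commits long-chain fatty acids to import into mitochondria, gave 6.87, 6.62 and 7.14 in deprived and 6.81, 7.04 and 7.22 in control VHL cells. In Vec cells it gave 6.01, 6.25 and 5.96 without cystine and 5.97, 6.11 and 6.10 in control medium. All VHL arrays were above all Vec arrays, with a wider spread among them (SD up to 0.26) than for the droplet genes. CPT1A was 1.74-fold higher in VHL cells in deprived medium (0.80 ± 0.13, limma adjusted p = 1.54e-04) and 1.95-fold higher in control medium (0.96 ± 0.13, limma adjusted p = 3.06e-05). The Vec group means, 6.08 and 6.06, lay near the lower tertile of all probe sets, where background signal can make a fold look smaller.

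**Figure D1:**
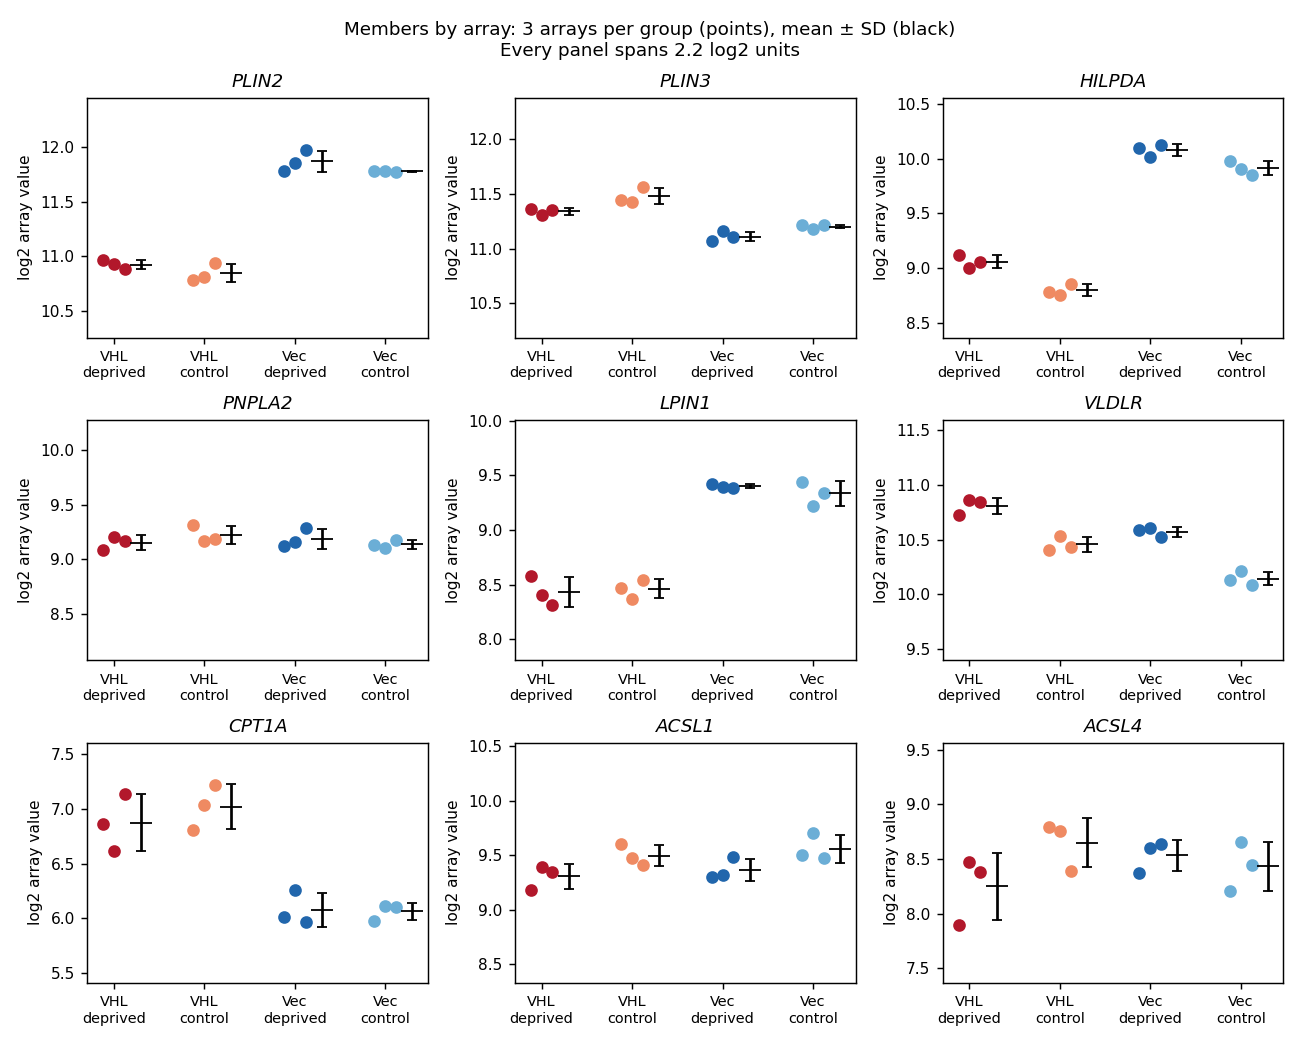
Log2 array values (vertical axes) of the 9 measured members in the 4 groups, with 3 arrays per group as points and the mean ± SD in black; every panel spans the same number of log2 units. PLIN2, HILPDA and LPIN1 are lower and CPT1A is higher in VHL than in Vec cells in either medium, while VLDLR is higher in deprived than in control medium in each line.

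Between deprived and control medium at 6 h, few of these genes were called. VLDLR rose in each line, HILPDA rose in VHL cells, and limma called no member lower. At an unadjusted p under 0.05, 3 members were lower in VHL cells (PLIN3, ACSL1 and ACSL4) and 1 in Vec cells (ACSL1). In VHL cells 2 of 9 members were called, both higher, where 11.6% of all genes were called, 6.16% higher and 5.48% lower. In Vec cells 1 of 9 was called, higher, where 4.18% of all genes were called, 2.11% higher and 2.06% lower. Deprived and control arrays did not overlap for 4 members in VHL cells and 3 in Vec cells, against 30.6% and 22.7% of all genes. These shares rest on few genes. The median difference of the 9 members was -0.07 in VHL cells and 0.07 in Vec cells, against 0.01 over all genes in each line. These comparisons share no arrays with each other.

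VLDLR, which takes up triglyceride-rich lipoproteins, gave 10.72, 10.86 and 10.84 in deprived VHL cells against 10.40, 10.54 and 10.43 in control VHL cells. It gave 10.59, 10.60 and 10.52 in deprived Vec cells against 10.13, 10.21 and 10.09 in control Vec cells. Deprived and control arrays did not overlap in either line. VLDLR rose 1.28-fold in VHL cells (0.35 ± 0.06, limma adjusted p = 0.00167) and 1.34-fold in Vec cells (0.43 ± 0.06, limma adjusted p = 8.23e-04). The responses differed by -0.08 ± 0.08, VHL minus Vec (limma adjusted p = 0.783, 95% interval -0.25 to 0.10). VLDLR was also higher in VHL than in Vec cells, by 0.24 ± 0.06 in deprived medium (limma adjusted p = 0.00302) and 0.31 ± 0.06 in control medium (limma adjusted p = 3.80e-04), which is the opposite direction to PLIN2, HILPDA and LPIN1. From low to high the groups stood as control Vec, control VHL, deprived Vec and deprived VHL cells, and the middle pair overlapped.

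HILPDA rose by 0.26 ± 0.05 in VHL cells without cystine (1.20-fold, limma adjusted p = 0.00751). In Vec cells its difference was 0.17 ± 0.05 (limma adjusted p = 0.110), which did not pass the threshold although the groups did not overlap. The difference between these responses was 0.09 ± 0.08 (limma adjusted p = 0.701), so a response particular to VHL cells is not shown. After the rise, HILPDA in deprived VHL cells still lay below every Vec array.

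PLIN2 differed by 0.08 ± 0.06 between deprived and control medium in VHL cells (limma adjusted p = 0.419) and by 0.09 ± 0.06 in Vec cells (limma adjusted p = 0.468). PLIN3 gave -0.14 ± 0.05 in VHL cells (limma adjusted p = 0.0839) and -0.09 ± 0.05 in Vec cells (limma adjusted p = 0.377), without overlap of deprived and control arrays in either line. After median centring of the arrays the PLIN3 value in VHL cells was -0.17 and was called (limma adjusted p = 0.0295), and with a variance trend and robust moderation -0.14 was called too (limma adjusted p = 0.0254). LPIN1, PNPLA2 and CPT1A had differences between -0.15 and 0.07 in these comparisons, none called.

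The acyl-CoA synthetases were not called in any comparison with their brightest probe sets. ACSL4 gave 7.90, 8.47 and 8.38 in deprived and 8.80, 8.76 and 8.39 in control VHL cells. In Vec cells it gave 8.37, 8.60 and 8.64 without cystine and 8.20, 8.65 and 8.45 in control medium. The SD within a group reached 0.31, the widest of the members. The difference in VHL cells was -0.40 ± 0.16 (limma adjusted p = 0.117, 95% interval -0.74 to -0.06) and in Vec cells 0.10 ± 0.16 (limma adjusted p = 0.820, 95% interval -0.24 to 0.44). Without replicate 1 of the deprived VHL cells the first value was -0.23 (limma adjusted p = 0.381). The responses differed by -0.50 ± 0.22 (limma adjusted p = 0.481), so for ACSL4 neither a fall in VHL cells nor equal responses can be shown with these arrays. ACSL1, which activates long-chain fatty acids for storage and oxidation, gave 9.18, 9.39 and 9.35 in deprived and 9.60, 9.48 and 9.41 in control VHL cells. In Vec cells it gave 9.30, 9.32 and 9.48 without cystine and 9.50, 9.70 and 9.47 in control medium. Deprived and control arrays overlapped in Vec cells and not in VHL cells. The ACSL1 difference was -0.19 ± 0.08 in VHL cells (limma adjusted p = 0.154) and -0.19 ± 0.08 in Vec cells (limma adjusted p = 0.253).

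By limma, no member was called for a difference of its deprivation response between the lines, where 0.134% of all genes were called, 0.125% higher and 0.00836% lower. This difference was -0.50 for ACSL4 and lay between -0.16 and 0.09 for the other members, and ACSL4 was the 1 member with an unadjusted p under 0.05.

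**Figure D2:**
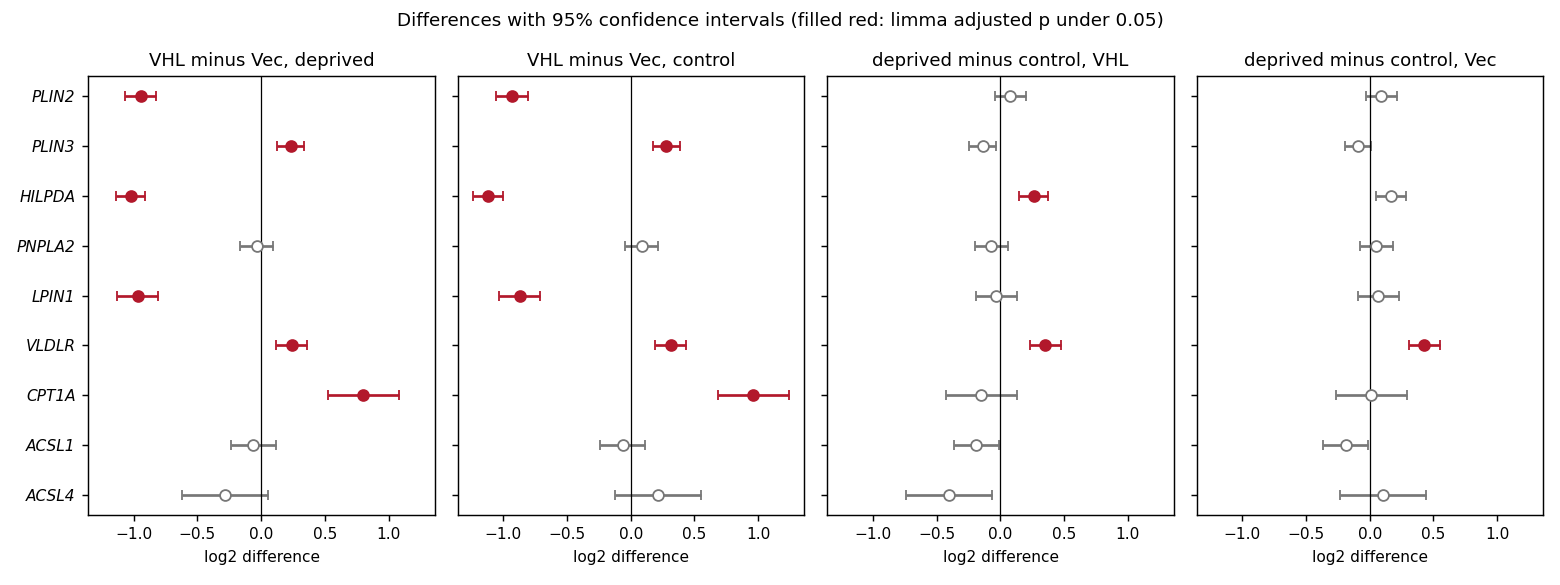
Log2 differences (horizontal axes) of the 9 members with 95% confidence intervals, for VHL minus Vec cells in each medium and deprived minus control medium in each line; filled red points have a limma adjusted p under 0.05. Between the lines 6 members are called in each medium, while deprivation gives VLDLR and HILPDA in VHL cells and VLDLR in Vec cells.

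The 9 members have 17 probe sets between them, and 5 members have more than 1, which did not always agree. LPIN1 has another bright probe set, with -0.98 ± 0.05 in deprived and -0.92 ± 0.05 in control medium for VHL against Vec cells (limma adjusted p = 4.82e-09 and 1.02e-08, adjusted over probe sets), close to the brightest. A dim LPIN1 probe set, with group means of 4.73 to 5.05, gave -0.07 in deprived medium, not called, and -0.24 in control medium (limma adjusted p = 0.0488). Of the 4 probe sets of CPT1A all gave a positive difference in either medium, and 3 were called in each, from 0.31 to 0.80 in deprived and 0.30 to 0.96 in control medium. The mean of the CPT1A probe sets gave 0.43 and 0.44. The other probe set of PLIN2 lay near the bottom of the scale, with group means of 4.67 to 4.77, and did not show the difference between the lines (0.10 ± 0.06 in deprived and -0.01 ± 0.06 in control medium, limma adjusted p = 0.180 and 0.923). The PLIN2 result therefore rests on its brightest probe set alone, and the mean of both probe sets gave -0.42 and -0.47. For ACSL1 the probe sets disagreed in sign under deprivation in VHL cells, where the dimmer rose by 0.18 ± 0.05 (limma adjusted p = 0.0353) and the brighter gave -0.19. The dimmer ACSL1 probe set also gave -0.15 ± 0.05 for VHL against Vec cells in control medium (limma adjusted p = 0.0269). Which of these follows the transcript was not tested. The dimmer PNPLA2 probe set gave 0.11 ± 0.11 in deprived and -0.02 ± 0.11 in control medium for VHL against Vec cells. On deprivation it gave 0.17 ± 0.11 in VHL cells and 0.05 ± 0.11 in Vec cells. None of these was called, and all but the last were opposite in sign to the brighter PNPLA2 probe set. PLIN3, HILPDA, VLDLR and ACSL4 have 1 probe set each.

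**Figure D3:**
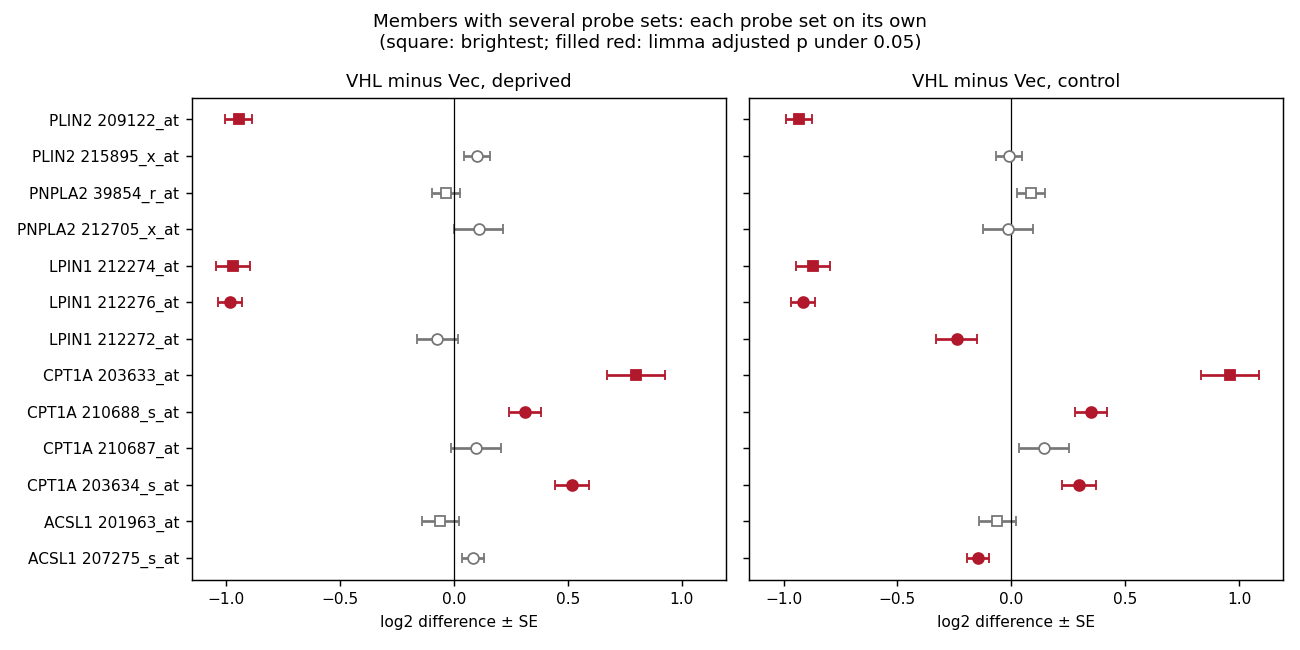
Log2 difference ± SE of VHL minus Vec cells for each probe set of the 5 members with several, in deprived medium on the left and control medium on the right; squares mark the brightest probe set and filled red symbols a limma adjusted p under 0.05. The 2 bright LPIN1 probe sets lie together, whereas the dim PLIN2 probe set lies near 0.

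No promoter sequence was available here for HILPDA. Promoter sequences from RefSeq (GRCh38.p14) were searched for the other 8 measured members and ACSL3, in the 250 bases before each annotated start. They are shown for PLIN2 and PLIN3, perilipins that differed between the lines in opposite directions, and for VLDLR, the member higher in deprived medium in each line. The fourth is CPT1A, the member with the largest positive difference of VHL against Vec cells in either medium. The HIF core motif was searched as ACGTG and as GCGTG on both strands, and matches are in capitals, also where they were found on the other strand and where matches overlap.
PLIN2, chr9:19127493-19127742, minus strand: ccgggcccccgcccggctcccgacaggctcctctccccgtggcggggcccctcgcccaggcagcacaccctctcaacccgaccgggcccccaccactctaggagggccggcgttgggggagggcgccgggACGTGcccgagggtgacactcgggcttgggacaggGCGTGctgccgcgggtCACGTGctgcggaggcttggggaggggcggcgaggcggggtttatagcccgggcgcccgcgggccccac
PLIN3, chr19:4867668-4867917, minus strand: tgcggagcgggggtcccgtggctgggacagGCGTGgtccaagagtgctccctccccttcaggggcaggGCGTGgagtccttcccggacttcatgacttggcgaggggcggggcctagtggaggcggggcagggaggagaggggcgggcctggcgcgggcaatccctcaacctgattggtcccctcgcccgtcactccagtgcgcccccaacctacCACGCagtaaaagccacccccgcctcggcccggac
VLDLR, chr9:2621537-2621786, plus strand: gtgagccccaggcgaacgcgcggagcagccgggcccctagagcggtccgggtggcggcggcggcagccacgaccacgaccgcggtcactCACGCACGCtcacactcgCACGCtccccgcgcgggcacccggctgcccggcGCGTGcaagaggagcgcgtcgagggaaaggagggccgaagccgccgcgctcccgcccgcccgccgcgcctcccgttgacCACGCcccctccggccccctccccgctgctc
CPT1A, chr11:68844278-68844527, minus strand: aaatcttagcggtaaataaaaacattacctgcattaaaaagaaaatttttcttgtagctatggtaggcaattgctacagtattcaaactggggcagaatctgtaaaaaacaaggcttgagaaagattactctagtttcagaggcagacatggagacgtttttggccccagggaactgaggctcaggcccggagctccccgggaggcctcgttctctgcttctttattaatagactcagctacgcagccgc
PLIN2 had 4 matches in this window, at 3 places, since the run CACGTG holds ACGTG on each strand. PLIN3 had 3 matches and VLDLR had 5, all of them GCGTG, and CPT1A had none. Of 15 windows, several of them from ACSL1 and LPIN1, 8 held at least 1 match, against 43.2% of 35116 windows of the same length in the table. At least 3 matches stood in 7.76% of all windows. ACGTG alone was found in 18.5% and, among the members searched, only in PLIN2. The ATF4 and C/EBP composite core, searched as TGATGNAA on both strands (in 3.14% of all windows), was found in no window of the members searched. A match only says that these letters are present, and members with matches differed between the lines in both directions.

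By a fixed measure of likeness, the root mean square difference of each array's deviation from the gene's own mean over 12 arrays, the genes closest to HILPDA were CHST15 (0.058), ANKRD28 (0.067) and WDR13 (0.071). CHST15 averaged 9.51 in deprived and 9.29 in control VHL cells, against 10.6 in deprived and 10.4 in control Vec cells. Closest to PLIN2 were UXT (0.036), CTNNAL1 (0.045) and RASSF1 (0.053), and closest to LPIN1 were SLC43A3 (0.064), ARPC5L (0.066) and GRPEL1 (0.070). These 3 members had the widest ranges of group means, and the likeness is mostly the difference between the lines, which all arrays of a line share.

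Around the members, 7 lists of lipid genes held 120 genes, of which 89 are measured here and 80 are not members. Among these 80, VHL against Vec cells gave 24 higher and 25 lower in deprived medium (61.3% called) and 22 higher and 25 lower in control medium (58.8% called), against 47.2% and 46.1% of all genes. With genes at or under the lower tertile left out, 5396 of 8765 genes were called in deprived and 5335 of 8765 in control medium. The lists were chosen with earlier results of these data known, so an excess of lipid genes is not shown. Deprivation gave 5 higher and 5 lower in VHL cells (12.5%) and 2 higher and 1 lower in Vec cells (3.75%), against 11.6% and 4.18% of all genes. The line differences thus ran in both directions within most lists rather than 1 way. By limma, none of the 80 was called for a difference of its deprivation response between the lines. A deprivation call in 1 line below therefore does not show a response particular to that line.

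In the triglyceride breakdown list, 4 of 10 were lower and none higher in VHL cells in deprived medium, and 4 were lower and 1 higher in control medium. Besides HILPDA, ABHD5, the activator of PNPLA2, was lower in deprived medium (-0.58 ± 0.06, limma adjusted p = 3.04e-06), as was MGLL, the monoglyceride lipase (-0.39 ± 0.06, limma adjusted p = 9.87e-05). The median of the list was -0.06 in deprived and -0.15 in control medium, against 0.00 over all genes in each. The inhibitor and the activator of PNPLA2 were thus both lower, while PNPLA2 itself was not called.

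In the list of glycerolipid and sterol ester synthesis, 3 of 9 were higher and 4 lower in each medium. LPIN2, a paralog of LPIN1, was higher in VHL cells by 0.67 ± 0.06 in deprived and 0.58 ± 0.06 in control medium (limma adjusted p = 1.49e-06 and 6.14e-06), opposite to LPIN1. DGAT1, which makes triglyceride from diacylglycerol, was lower, with -0.54 ± 0.09 and -0.75 ± 0.09. Among droplet proteins, 3 of 11 were higher and 2 lower in deprived medium, and 2 higher and 3 lower in control medium. HSD17B11, a droplet-bound dehydrogenase, was higher by 0.62 ± 0.07 and 0.51 ± 0.07. CIDEC, a droplet fusion protein, rose by 0.42 ± 0.07 on deprivation in VHL cells (limma adjusted p = 0.00310), with group means of 6.90 in deprived and 6.48 in control VHL cells, not far above the lower tertile of all probe sets.

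In the list of lipid uptake and binding, 3 of 17 were higher and 5 lower in VHL cells in deprived medium, and 3 higher and 4 lower in control medium. The smallest adjusted p was that of FABP6, the bile acid binding protein of the ileum, with -3.29 ± 0.12 and -3.51 ± 0.12 (limma adjusted p = 2.09e-10 and 1.05e-10). LRP8, a receptor of the same family as VLDLR, was lower, with -0.89 ± 0.07 and -0.78 ± 0.07, opposite to VLDLR, and SLC27A3, of the fatty acid transport protein family, was higher by 0.99 ± 0.07 and 0.82 ± 0.07. On deprivation FABP5, a fatty acid binding protein, fell by 0.26 ± 0.04 in VHL cells (limma adjusted p = 0.00202). In Vec cells FABP5 averaged 11.99 in deprived and 12.11 in control medium, not called.

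Acyl-CoA synthetases and acyl-CoA handling had 4 of 15 higher and 6 lower in VHL cells in deprived medium, and 5 and 5 in control medium. ACSL5, another long-chain synthetase, was lower, with -2.14 ± 0.08 in deprived and -1.54 ± 0.08 in control medium (limma adjusted p = 2.32e-10 and 4.58e-09), whereas ACSL1 and ACSL4 were not called. ACOT9, a mitochondrial thioesterase that splits acyl-CoA, was lower, with -0.85 ± 0.06 and -0.97 ± 0.06. On deprivation LPCAT3, which puts polyunsaturated chains into phospholipids, rose by 0.23 ± 0.04 in VHL cells (limma adjusted p = 0.00324) and by 0.16 ± 0.04 in Vec cells (limma adjusted p = 0.0427). LPCAT1 was lower on deprivation, with -0.18 ± 0.05 in VHL cells (limma adjusted p = 0.0361) and -0.25 ± 0.05 in Vec cells (limma adjusted p = 0.0188). ACSL5 fell by 0.38 ± 0.08 on deprivation in VHL cells (limma adjusted p = 0.0101). Its means there were 6.33 in deprived and 6.71 in control medium, not far above the lower tertile of all probe sets. In Vec cells ACSL5 averaged 8.47 in deprived and 8.25 in control medium, not called.

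Fatty acid import and oxidation had more genes higher than lower in VHL cells, 9 and 5 of 19 in deprived medium and 9 and 6 in control medium, with medians of 0.17 and 0.11. Without the member CPT1A these were 8 and 5 of 18, and 8 and 6. Over all genes 24.2% were higher and 23% lower in deprived medium, and 23.1% and 23% in control medium, with medians of 0.003 and -0.001. An excess in 1 direction was not tested. With CPT1A stood ECI1, an isomerase of unsaturated acyl-CoA, at 0.95 ± 0.05 in each medium, and ACAA2, the last enzyme of the cycle, at 0.63 ± 0.05 and 0.79 ± 0.05. HADH, a hydroxyacyl-CoA dehydrogenase of the cycle, was lower, with -0.56 ± 0.05 in deprived and -0.57 ± 0.05 in control medium (limma adjusted p = 9.09e-07 and 7.31e-07). On deprivation 1 rose and 1 fell in VHL cells, ETFDH with 0.26 ± 0.07 and ACADM with -0.30 ± 0.07. ETFDH averaged 6.30 in deprived and 6.05 in control VHL cells, near the lower tertile of all probe sets.

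Among lipid-sensing regulators and their targets, 5 of 11 were higher and 3 lower in VHL cells in deprived medium, and 3 and 3 in control medium. PPARD, a nuclear receptor for fatty acids that is known to activate PLIN2 and ANGPTL4, was lower, with -1.98 ± 0.10 in deprived and -1.45 ± 0.10 in control medium (limma adjusted p = 4.15e-09 and 8.88e-08). ANGPTL4, an inhibitor of lipoprotein lipase, was lower, with -2.22 ± 0.12 and -1.57 ± 0.12. NR1H3 of the same list went the other way, with 0.83 ± 0.08 in deprived and 0.66 ± 0.08 in control medium. The part of PPARD in the differences of PLIN2 and ANGPTL4 was not tested. On deprivation ANGPTL4 rose by 0.59 ± 0.12 in Vec cells (limma adjusted p = 0.0146), and MLXIP, a glucose-sensing transcription factor, fell by 0.27 ± 0.06 in VHL cells (limma adjusted p = 0.0149). In the other line neither was called. ANGPTL4 averaged 8.64 in deprived and 8.71 in control VHL cells, and MLXIP 10.55 in deprived and 10.77 in control Vec cells. Summed log2 values of 5 adipocyte markers, which include CIDEC and PLIN1, ran from 28.1 to 29.5 in VHL cells and from 28.9 to 29.5 in Vec cells, and 2 of the 5, among them ADIPOQ, lay at or under the lower tertile.

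**Figure D4:**
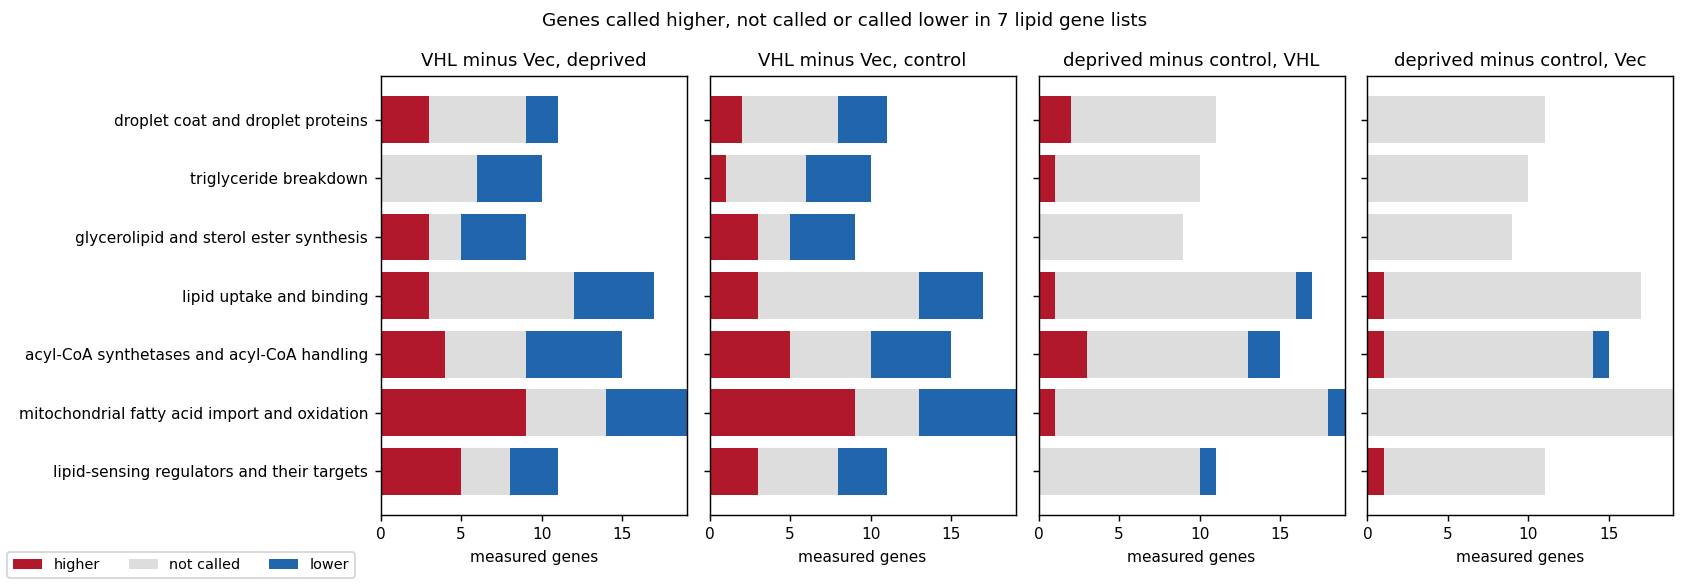
Number of measured genes (horizontal axes) called higher, not called or called lower in 7 lists of lipid genes, for VHL minus Vec cells in each medium and deprived minus control medium in each line. Differences between the lines run in both directions in most lists, and deprivation gives at most 5 calls in any list.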

How the data were processed

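RNA was measured on 12 single-colour Affymetrix arrays in 4 groups of 3, with biotin-labelled targets made from total RNA, per the labels. The deposited values are on a log2 scale, as read from the values; how the authors normalized them is not given in the sources used here, and they were used as deposited. Of 22215 probe sets, 19064 named 1 gene, 1043 several and 2108 none; symbols were updated through RefSeq for 19052. Each of 11963 genes was represented by its brightest probe set. A mean for each group was fitted with limma (3.58.1; R 4.3.3), leaving 8 degrees of freedom for the residuals and 12.7 after moderation, and the fit was tested on simulated data. Groups follow the sample titles. The members, the gene lists and their naming rule (all 10 members, at most 3 called genes per list and comparison, and the 3 closest genes of 3 members) were chosen with earlier results of these data known. Arrays of different groups sharing a replicate number had residual correlations between -0.268 and 0.235 over 18 pairs (median 0.053). Those with different numbers had -0.350 to 0.291 over 36 pairs (median -0.018). As these ranges overlapped widely, the arrays were treated as unpaired. The number of arrays limits precision. Alternatives were other scaling, filtering, probe set choices, variance models, array subsets, a replicate block and leaving out each array.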

Additional observations from a re-analysis of the deposited data

How the results depend on the processing

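All 15 calls of members kept their direction and their call when any 1 of the 12 arrays was left out, and under the other settings that could be run on the same genes: quantile normalization, median centring, leaving out dim genes, averaging of a gene's probe sets, brightest probe sets adjusted over probe sets, a variance trend, only the arrays compared, and the replicate block. The exceptions are second probe sets: of 12 such values for called results, 7 kept the call, 4 lost it and 1 turned. The value that turned was PLIN2, at 0.102 with its dim probe set for VHL against Vec cells in deprived medium. Of 28 second probe set values for results that were not called, 15 changed sign without a call, 1 passed the threshold in the same direction, and 1 turned and was called, ACSL1 on deprivation in VHL cells (0.181); the cause was not tested. When _x_at and _s_at probe sets were left out, PLIN3, VLDLR and ACSL4 have none left, so members called on deprivation numbered 1 in VHL cells and 0 in Vec cells. Without any 1 array, the members called were 2 in VHL cells and 1 in Vec cells on deprivation, 6 between the lines in each medium, and 0 for the difference of responses. With the replicate block these counts were the same, and 1326 genes were called on deprivation in VHL cells, against 1392 without it. Over all genes, deprivation calls in Vec cells numbered 500, but 253 to 503 without 1 array, 311 with only the arrays compared and 233 without _x_at and _s_at. In VHL cells they numbered 1392, but 764 to 1396, 835 and 771, and with median centring 550 of 1423 were higher, against 737 of 1392. Leaving out any of the 6 Vec arrays took the count in Vec cells down by over 1.5 times, as did leaving out control replicate 1 or 2 or deprived replicate 1 in VHL cells (764, 849 and 822 genes). Between the lines, leaving out _x_at and _s_at probe sets gave 3505 genes in deprived and 3427 in control medium, against 5650 and 5520, and a variance trend gave 45 genes for the difference of responses, against 16. With the brightest probe sets or their averages, uncalled member values changed sign in 20 of 360 cases without 1 array and in 11 of 252 under other settings. Signal over background limits CPT1A in Vec cells and the dim second probe sets.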
